A study of Homo sapiens with 9 samples.

Results

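The genes described here encode the proteins of the cytosolic ribosome in HepG2, a widely used human cell line grown from a liver tumor, and were followed by RNA-seq through Gln deprivation. They were chosen by symbol, as the rows named RPL or RPS and a number, with an A, X, Y or L suffix where there was one, together with RPLP0, RPLP1, RPLP2 and RPSA. The kinases of the RPS6K family and pseudogenes were left out. This gave 83 of the 22587 rows of the table, made up of 43 large-subunit genes, 31 small-subunit genes, the 3 genes of the P0, P1 and P2 proteins, 5 paralogs with an L in the symbol (RPL3L, RPL7L1, RPL22L1, RPL26L1 and RPS27L) and a Y-linked copy of RPS4X that is counted but whose level is not given. The study compared cells kept in normal medium (Gln added) with cells moved to Gln-free high-glucose DMEM for 12 h or 24 h. Each of the 3 groups had 3 libraries. The cells had been seeded in dishes 24 h before the change of medium, and serum was part of the growth medium. GlutaMAX, a stable source of Gln, is named by the labels in a conflicting way, as the supplement of the normal-medium samples in one field and of the Gln-free medium in another. Nothing in the labels says that the 3 libraries of a group came from separate cultures, so the p-values may measure technical spread only, and the culture time of the normal-medium cells is not given in the sources used here.

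Ribosomal proteins are made in near-equal numbers and join ribosomal RNA to form the small and the large subunit, so that their mRNAs are among the most abundant in a dividing cell. Most of these mRNAs start with a terminal oligopyrimidine (TOP) tract, a C followed by an unbroken run of C and T. Through this tract the kinase complex mTORC1 and the RNA-binding protein LARP1 hold back the translation of the mRNAs when amino acids are short, and LARP1 also keeps the silenced mRNAs from decay. RNA-seq measures the amount of an mRNA and not its translation.

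The start of the mRNA was read from RefSeq (GRCh38.p14), where 67 of the 83 members had a window around the annotated start. The windows below hold 10 bases before the start and the first 20 bases of the mRNA, on the strand of the gene. Capitals mark the C and T run that reaches into the first 3 bases of the mRNA. RPS26 and RPL24 are shown because they fell, RPLP0 because it was the highest, and the others are paralogs beside the genes they resemble.
RPS26, chr12:56041908-56041937, plus strand: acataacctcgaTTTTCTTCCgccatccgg
RPL24, chr3:101686699-101686728, minus strand: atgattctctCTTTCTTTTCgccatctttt
RPLP0, chr12:120201092-120201121, minus strand: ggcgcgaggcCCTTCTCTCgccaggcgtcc
RPS27, chr1:153990752-153990781, plus strand: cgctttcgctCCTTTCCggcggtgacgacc
RPS27L, chr15:63157458-63157487, minus strand: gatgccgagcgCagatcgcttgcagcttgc
RPL22, chr1:6199576-6199605, minus strand: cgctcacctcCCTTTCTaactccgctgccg
RPL22L1, chr3:170870176-170870205, minus strand: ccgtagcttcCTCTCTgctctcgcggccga
RPL26, chr17:8383174-8383203, minus strand: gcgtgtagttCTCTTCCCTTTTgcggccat
RPL26L1, chr5:172958719-172958748, plus strand: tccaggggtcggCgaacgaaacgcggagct
RPL7L1, chr6:42879606-42879635, plus strand: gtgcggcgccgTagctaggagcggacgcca
RPS26 had a run of 9 from the third base, RPL24 a run of 10 and RPL26 a run of 12 from the first base. In RPS27L, RPL26L1 and RPL7L1 the run was a single base, whereas RPL22L1 kept a run of 6. A run of at least 5 within the first 15 bases was present in 49 of the 67 members (73.1%), and in 48 of the 63 that are not paralogs (76.2%). The same run stood at 12.7% of all 27305 windows of the table, at 17.4% of the 69 windows of mitochondrial ribosomal protein genes and at 86.7% of the 15 windows of other mRNAs known to carry a TOP tract. These counts do not ask for a C as the first base of the mRNA. With it, the run was present in 44 of the 67 members (65.7%) and 4.3% of all windows. The shares were then 7.2% for mitochondrial ribosomal protein genes and 86.7% for the other TOP mRNAs. A match describes these letters at an annotated start, which can lie some bases from the start used in HepG2.

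The libraries held between 29621270 and 36261546 fragments on genes, of which the members took 3.78% to 4.32%. FPKM, the unit of the deposited values, counts fragments relative to gene length and to the fragments of the library, and sums to a different total in each library, from 371462 to 387589. Liver cell markers (ALB, AFP, APOA1, APOA2, APOB, TTR, SERPINA1, FGB and HNF4A) were at 14.7 to 3908 FPKM in every library, and PECAM1, CDH5, COL1A1, COL1A2 and DCN, which mark endothelium and fibroblasts, did not exceed 0.343. All values below describe the share of an mRNA in bulk RNA, so they show neither the number of cells nor the total RNA per cell.

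With Gln added, the abundance of the ribosomal protein mRNAs covered a wide range. RPLP0, the scaffold of the stalk that recruits elongation factors, was the highest, at 1411, 1436 and 1412 FPKM in the 3 libraries. RPS2, RPS12 and RPL13A were also among the highest, with means of 1355, 1287 and 1017 FPKM (SD 8.16, 29.2 and 22.1, n = 3). The libraries of RPLP0 did not overlap with those of RPS2, nor those of RPS2 with those of RPS12. Over the 77 members that are not paralogs, the median was 412 FPKM and the middle of the distribution lay between 191 and 667 FPKM at the quartiles. These levels depend on the length that each count was divided by. That length, solved from the deposited values, ran from 390 to 7573 bases and was equal to the canonical GENCODE v44 transcript in 44 of 82 members, but more than 2 times as long in 10. With the canonical length in its place the median was 565 FPKM and the ratio of the upper to the lower quartile went from 3.50 to 2.86.

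**Figure D1:**
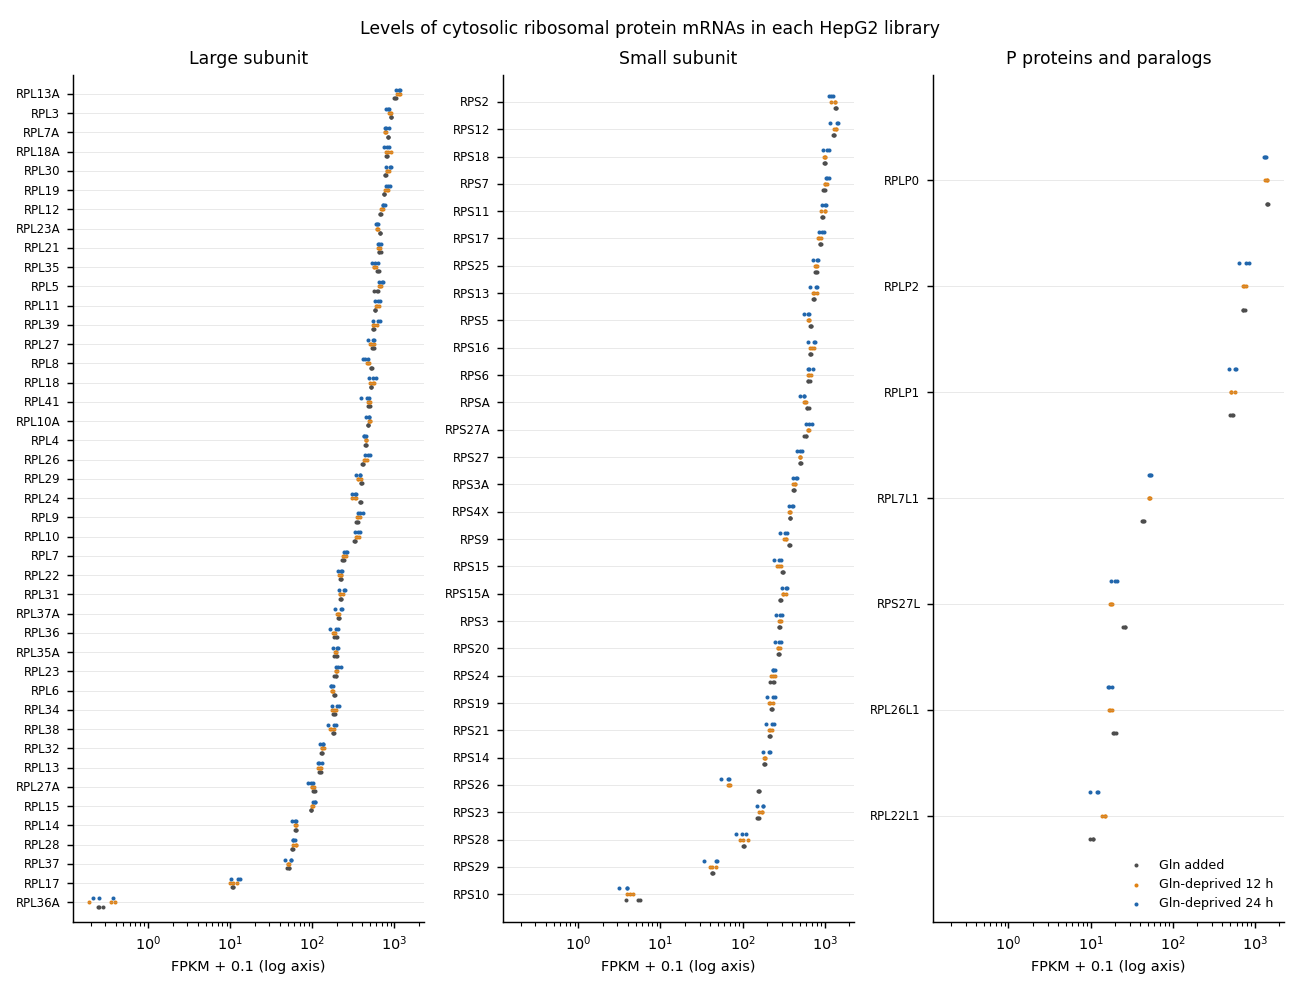
FPKM + 0.1 on a log axis for 80 of the 83 members in each of the 9 libraries (1 point per library, coloured by group), sorted by the mean with Gln added within the large subunit, the small subunit and the P proteins with paralogs. Most members lie between 100 and 1420 FPKM with the 3 groups on top of each other, while the Gln-deprived points of RPS26 stand to the left of those with Gln added.

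The low end of the range held paralogs, RPS29, and RPL36A, RPS10 and RPL17, whose exons are partly shared. RPS29 was at 42.8 FPKM with Gln added, and at 1085 FPKM on the canonical length. RPL36A was at 0.161 FPKM on average with Gln added, from 2 to 8 fragments over the 9 libraries, and RPL3L, a paralog of RPL3 known from muscle, was also under the limit of 0.5 FPKM for testing, so 81 of 83 members were tested. RPS10 was at 5.51, 3.68 and 5.19 FPKM with Gln added. In GENCODE v44 the readthrough gene RPS10-NUDT3 covers 31.5% of the exonic bases of RPS10, and RPL17-C18orf32 with 3 small nucleolar RNA genes covers 32.9% of those of RPL17. RPL17, a protein at the exit tunnel of the large subunit, was at 10.6 ± 0.261 FPKM (SD, n = 3). The levels of RPS10, RPL17 and RPL36A are uncertain where counting drops fragments that fit 2 genes. In addition, GENCODE lists pseudogenes named after 78 of 82 members, 1600 in all, of which 133 belong to RPL21 and 36 to RPS26, and the sources used here do not say how fragments that fit several places were treated.

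Gln deprivation for 12 h moved few of these mRNAs, and by little. Compared with Gln added, 4 of the 81 tested members rose and 9 fell (limma, adjusted p under 0.05), against a background of 29.1% of the 11880 tested rows higher and 31.0% lower. The median log2 difference was 0.003 over the members and -0.019 over all rows. An absolute log2 difference of at most 0.2 was found for 76 members (93.8%) and for 41.0% of all rows. Only RPS26 and RPS27L were past 0.5, 2 of 81 members, whereas 21.3% of all rows were. The 4 rises were RPL22L1, RPL7L1, RPL5 and RPL13A, and the 9 falls were RPS26, RPS27L, RPL24, RPS9, RPL26L1, RPL8, RPL7A, RPL23A and RPL6.

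After 24 h, 13 members had risen and 16 had fallen relative to Gln added, beside 33.0% of all rows higher and 31.7% lower. The median log2 difference was 0.036 over the members and 0.013 over all rows, and 1 member, RPS26, was past 0.5, as were 25.8% of all rows. In the large subunit 9 of 42 genes rose and 7 fell, in the small subunit 3 of 31 rose and 7 fell, and neither RPLP0, RPLP1 nor RPLP2 passed the test. Between 24 h and 12 h no member was higher and 1 was lower, RPL22L1, against 9.57% of all rows higher and 10.5% lower. At an unadjusted limma p under 0.05, 7 of the 81 members differed between the times, 2 of them higher at 24 h. The same limit was passed by 4008 of all 11880 rows, 2067 of them higher at 24 h. Both comparisons with Gln added use the same 3 control libraries, so that their counts are not independent.

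The direction of these small differences depended on the scaling between libraries. With FPKM rescaled to the same total, 15 members were higher and 3 lower at 12 h, beside 32.3% and 27.8% of all rows in that fit, and 23 higher and 9 lower at 24 h, beside 37.2% and 27.9%. With the trend on gene length removed from each library, 39 were higher and 2 lower at 12 h, beside 29.7% and 30.1% of all rows, and 30 higher and 7 lower at 24 h, beside 31.5% and 33.2%. The median difference of the members then became 0.12 at 12 h and 0.10 at 24 h. Without this correction, rows outside the ribosomal proteins with a length under 1500 bases had a median difference of -0.20 at 12 h, which was 0.003 for longer rows, while members under 1500 bases had a median of -0.004 and longer members of 0.024. Over the 81 members, the difference at 12 h was nearly unrelated to length (Spearman's rho 0.08) and to the level with Gln added (0.08), where all points share the 9 libraries.

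**Figure D2:**
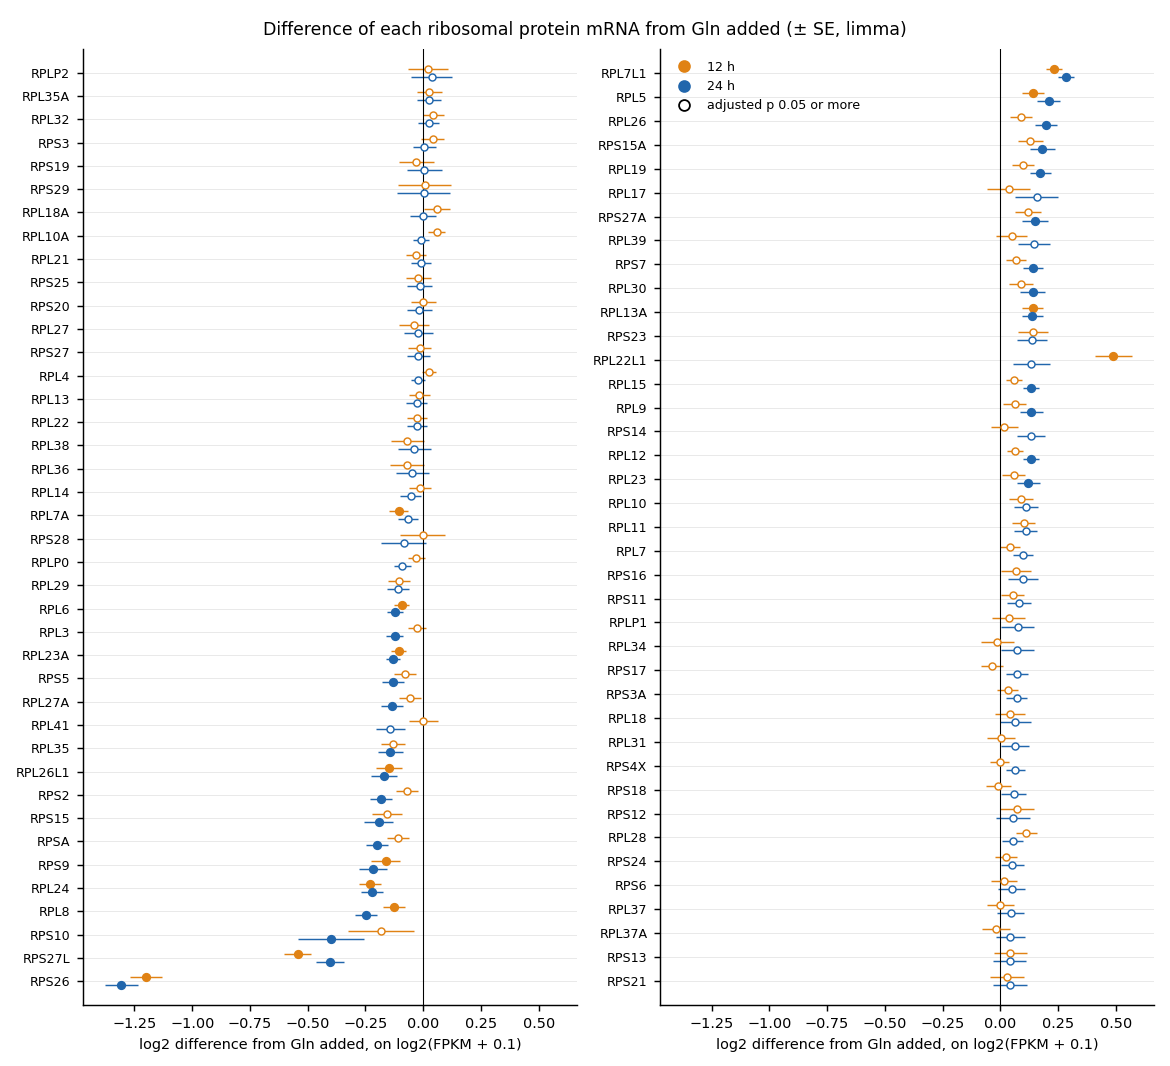
Log2 difference from Gln added of 79 tested members at 12 h (orange) and 24 h (blue), on the log2(FPKM + 0.1) scale, with the standard error from limma; filled points have an adjusted p under 0.05. RPS26 is at -1.20 and -1.31, and every member other than RPS26, RPS27L, RPS10, RPL22L1 and RPL7L1 lies within 0.25 of 0 at both times.

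RPS26 was the exception. RPS26, a small-subunit protein that contacts the mRNA near its exit and is mutated in Diamond-Blackfan anemia, lies on chr12:56041351-56044697 (GRCh38, plus strand), with no exon of another GENCODE gene on it. The control libraries had 157, 160 and 152 FPKM of it, those deprived for 12 h had 69.6, 68.1 and 66.3 FPKM, and those deprived for 24 h had 68.5, 54.9 and 67.0 FPKM. All 6 Gln-deprived libraries were far below the 3 controls, and the lowest control was more than 2 times the highest deprived library. The mean of the 12 h group was 43.5% of the control mean, and that of the 24 h group was 40.6%. Expressed as log2, RPS26 fell by 1.20 at 12 h (SE 0.07, limma adjusted p = 1.94e-07) and by 1.31 at 24 h (SE 0.07, limma adjusted p = 6.62e-08). The exact two-sided permutation test gave p = 0.1, the smallest that 3 libraries against 3 allow. Between 24 h and 12 h the log2 difference was -0.11 (adjusted p = 0.321). These values rest on 2082 to 6391 fragments per library.

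No other member came near this fall. Among the 75 tested members left after RPS26, RPS10 and the 4 tested paralogs are set aside, the lowest and highest log2 differences were -0.23 and 0.14 after 12 h, then -0.25 and 0.21 after 24 h. Of all 11880 rows, 1.05% were as low as RPS26 or lower at 12 h, and 1.21% were at 24 h. Measured against the median of the members in the same library, RPS26 stood at log2 ratios of -1.30, -1.24 and -1.30 with Gln added, of -2.45, -2.41 and -2.44 after 12 h and of -2.58, -2.71 and -2.50 after 24 h. Against that median the difference was -1.16 at 12 h and -1.32 at 24 h. TSR2, the chaperone that carries RPS26, had means of 7.96, 7.54 and 7.10 FPKM in the 3 groups, and its log2 difference at 24 h was -0.17 (limma adjusted p = 0.106), which was called without replicate 1 of that group. Under the 22 alternatives of processing, the 12 h difference of RPS26 lay between -1.22 and -1.06, the 24 h difference between -1.37 and -1.21, and the call held under each of them.

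**Figure D3:**
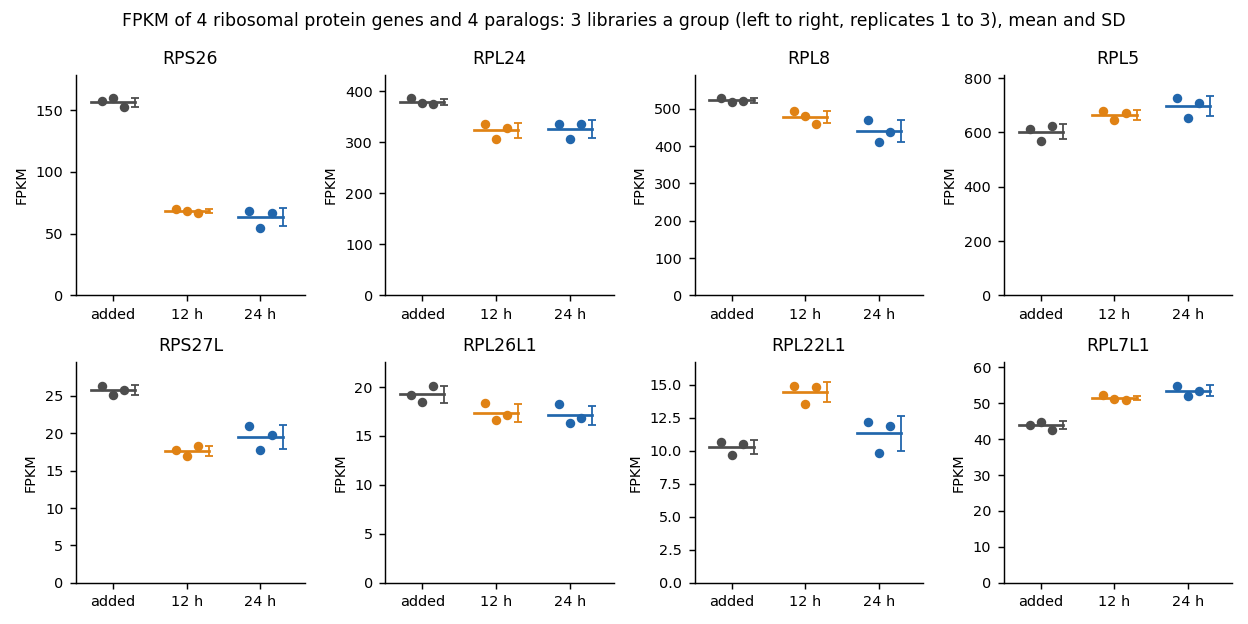
FPKM, from 0, of RPS26, RPL24, RPL8 and RPL5 (upper row) and of the paralogs RPS27L, RPL26L1, RPL22L1 and RPL7L1 (lower row) in the 3 libraries of each group, with the mean as a line and the SD as a bar. RPS26 drops from above 150 to under 70 FPKM, the other panels move by much less, and RPL22L1 is high at 12 h and lower again at 24 h.

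The other falls among the genes that are not paralogs were small. RPL24, a large-subunit protein that bridges to the small subunit, was at 386, 376 and 375 FPKM with Gln added, at 336, 306 and 327 FPKM after 12 h and at 335, 305 and 336 FPKM after 24 h. No deprived library reached a control library, and the log2 difference was -0.23 at 12 h (SE 0.047, limma adjusted p = 0.0014) and -0.22 at 24 h (limma adjusted p = 0.00163). With the trend on length removed, RPL24, whose length is 560 bases, had a difference of -0.009 at 12 h (adjusted p = 0.889) and lost its call at 24 h as well. RPL8, which lies beside the peptidyl transferase centre, went from 528, 517 and 521 FPKM to 493, 482 and 460 FPKM and then to 471, 412 and 439 FPKM. Its 24 h difference of -0.25 (SE 0.047, limma adjusted p = 0.000895) was called under all 22 alternatives. Its 12 h difference of -0.13 lost the call with the sign kept under 11 of them. Among these were leaving out any 1 control library, replicate 2 or 3 at 12 h or replicate 3 at 24 h. With the length trend removed, with the replicate block and without it, the 12 h difference of RPL8 turned to 0.021 and was not called either. At 24 h RPS9 (-0.22), RPSA (-0.20), RPS2 (-0.18) and RPL3 (-0.12) also fell. RPSA, known as the laminin receptor, was called in all alternatives but 1, and RPS9, RPS2 and RPL3 lost the call with the length trend removed. RPS10 was called lower at 24 h (-0.40, limma adjusted p = 0.0304), but its groups overlapped, from 88 to 162 fragments per library, and 8 alternatives ended the call, including those without control replicate 1 or 3 or 24 h replicate 3.

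The rises were of the same small size. RPL5, which with RPL11 and the 5S rRNA forms the particle that can bind MDM2, was at 614, 570 and 624 FPKM with Gln added, at 677, 644 and 670 FPKM after 12 h and at 726, 655 and 708 FPKM after 24 h. The groups did not overlap at either time, and the log2 difference was 0.14 at 12 h (SE 0.048, limma adjusted p = 0.0267) and 0.21 at 24 h (limma adjusted p = 0.003). The 12 h call was lost without control replicate 2 or without replicate 1 or 3 of the 12 h group, and the 24 h call was kept in all 22 alternatives. Its partner RPL11 did not pass the test (0.10 at 12 h, limma adjusted p = 0.106, and 0.11 at 24 h, limma adjusted p = 0.0771), but was called higher under 7 alternatives at each time, among them rescaled totals, the length trend removed, the replicate block and leaving out replicate 2 of the 24 h group. RPL26, RPL15, RPL12 and RPL19 of the large subunit and RPS15A and RPS7 of the small subunit rose at 24 h by 0.13 to 0.20. Of these, RPL26 (0.20), RPS15A (0.18) and RPL19 (0.17) were called under all alternatives at 24 h. RPL13A, the host of several small nucleolar RNAs, had the same difference of 0.14 at both times, a call lost without control replicate 3, without 12 h replicate 1 or 2 at 12 h and without 24 h replicate 3 at 24 h.

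Members known for a role in signalling or disease are given by their values. RPS6, the substrate of the S6 kinases, was at 627 to 666 FPKM with Gln added and at 622 to 728 FPKM in the deprived libraries, with differences of 0.016 and 0.048 (limma adjusted p = 0.827 and 0.488). With the length trend removed, with the replicate block and without it, RPS6 was called higher at both times. RPS19, mutated in Diamond-Blackfan anemia like RPS26, differed by -0.03 at 12 h and 0.005 at 24 h. RPS27A, made as a fusion with ubiquitin, rose by 0.15 at 24 h (limma adjusted p = 0.0409), with groups that overlapped and a call that 10 alternatives ended, including those without any 1 control library, 12 h replicate 1 or 2, or 24 h replicate 1 or 3. RPL10, one of the last proteins to join the large subunit, and RPL39 at the exit tunnel had differences of 0.11 and 0.15 at 24 h (limma adjusted p = 0.0815 and 0.0847). Each was called higher at 24 h under 7 alternatives, among them rescaled totals, the length trend removed, the replicate block and leaving out replicate 2 of the 24 h group. In the stalk, RPLP0 had a difference of -0.09 at 24 h with groups that did not overlap (limma adjusted p = 0.0532, called lower under 5 alternatives, among them leaving out 12 h replicate 3 or 24 h replicate 1). At the same time RPLP1 had a difference of 0.074 (called higher under 3 alternatives, 1 of them without 24 h replicate 2). That of RPLP2 was 0.036 (called higher without 24 h replicate 2).

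Each of the 4 tested paralogs passed the test at 12 h, 2 upward and 2 downward, beside 29.1% and 31.0% of all rows. At that time 9.79% of all rows were as low as RPS27L or lower, and 10.2% were as high as RPL22L1 or higher. RPS27L, a target of p53 on chr15:63125872-63158021, was at 26.4, 25.1 and 25.8 FPKM with Gln added, at 17.8, 16.9 and 18.3 FPKM after 12 h and at 20.9, 17.8 and 19.8 FPKM after 24 h. It fell by 0.54 at 12 h (SE 0.059, limma adjusted p = 1.82e-05) and by 0.40 at 24 h (limma adjusted p = 0.000125). RPS27 itself was at 503, 518 and 499 FPKM with Gln added and differed by -0.015 and -0.022, and RPS27L went from 5.09 ± 0.218% of RPS27 (SD, n = 3) to 3.52 ± 0.114% and 3.90 ± 0.0328%. The ratio did not overlap between the controls and either deprived group (exact two-sided permutation test, p = 0.1, the smallest possible).

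RPL22L1, the paralog of RPL22 on chr3:170864875-170870208, was at 10.6, 9.66 and 10.5 FPKM with Gln added, at 14.9, 13.6 and 14.8 FPKM after 12 h and at 12.2, 9.81 and 11.9 FPKM after 24 h. It rose by 0.49 at 12 h (SE 0.08, limma adjusted p = 0.000359), the largest rise of a member, and at 24 h 1 of 3 libraries lay among the controls (0.13, limma adjusted p = 0.163), a difference that was called without replicate 2 of that group, with the replicate block, with the length trend removed and with both of these. RPL22L1 made up 4.60 ± 0.134%, 6.59 ± 0.132% and 5.15 ± 0.344% (SD, n = 3) of the RPL22 level in the control, 12 h and 24 h groups, while RPL22 differed by -0.027 and -0.028. RPL7L1, a paralog of RPL7 with a role in making the large subunit, was at 44.04, 44.9 and 42.7 FPKM, then at 52.2, 51.3 and 50.9 FPKM and then at 54.9, 52.0 and 53.5 FPKM. All 6 deprived libraries were above the controls, by 0.23 at 12 h (limma adjusted p = 0.000218) and 0.285 at 24 h (limma adjusted p = 3.71e-05). RPL26L1, the paralog of RPL26, fell by 0.15 and 0.17 (limma adjusted p = 0.0428 and 0.0221), and 12 alternatives ended its call at 12 h (without control replicate 1 or 3, 12 h replicate 2 or 3 or 24 h replicate 3 among them) and 6 at 24 h (without control replicate 3 or 24 h replicate 2 or 3 among them). With RPL26 rising at 24 h, RPL26L1 went from 4.68 ± 0.146% of RPL26 to 3.97 ± 0.105% and 3.63 ± 0.0571%.

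The ribosomal protein mRNAs also differed between libraries of the same group, and did so together. In the 24 h group, replicate 1 was above the mean of its group for all 81 tested members, and replicate 2 for 1 of them, RPS10. Their median deviation from the group mean was 0.09, -0.11 and 0.03 on the log2 scale in replicates 1, 2 and 3. In the same libraries 58.9%, 44.6% and 51.7% of all tested rows, and 18, 4 and 9 of the 21 other TOP mRNAs, were above the mean of the group. The same order was found for the mitochondrial ribosomal protein genes (81.8%, 11.7% and 57.1% above the mean) and, less far apart, for other genes under 1500 bases (64.2%, 34.5% and 58.8%). The median coefficient of variation within the 24 h group was 7.40% for the members and 3.65% for other genes over 100 FPKM, against 2.00% and 1.98% with Gln added. Summed over all 83 members, the share of all FPKM was 9.52%, 9.31% and 9.48% with Gln added, 9.86%, 9.62% and 9.58% after 12 h and 10.44%, 9.15% and 9.97% after 24 h. The lowest and the highest of the 9 values were both in the 24 h group. Genes of the mitochondrial genome took 15.97%, 18.8% and 17.4% of FPKM in the 24 h libraries, and their part in this pattern was not tested.

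**Figure D4:**
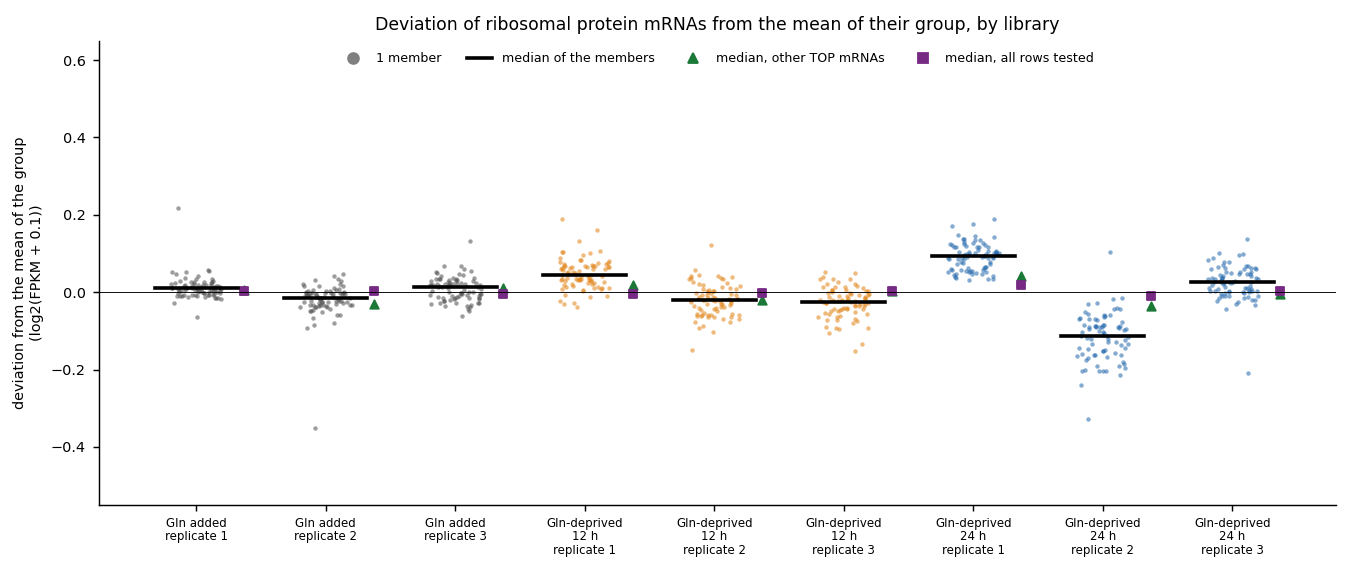
Deviation of each member (points, 80 members) from the mean of its group in each library, on the log2(FPKM + 0.1) scale, with the median over the members (bar), over 21 other TOP mRNAs (triangles) and over all tested rows (squares). The bar is at 0.09 in replicate 1 and at -0.11 in replicate 2 of the 24 h group, and the squares stay within 0.02 of 0.

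Several counts of calls turned on single libraries. Without replicate 2 of the 24 h group, 39 members were higher and 11 lower at 24 h, beside 31.9% and 29.5% of all rows in that fit, and 10 were higher than at 12 h, beside 8.32%. Without replicate 1 of that group, 9 were higher and 20 lower at 24 h, beside 31.9% and 31.4% of all rows, and 5 were lower than at 12 h, beside 11.1%. The count of 13 higher at 24 h became 8 without replicate 3 of the 24 h group or without replicate 2 of the controls, and the count lower between the times became 2 without replicate 3 of the 12 h group. At 12 h, the 4 higher became 2 without replicate 1 of the 12 h group, and 8 or 10 without replicate 1 or 2 of the 24 h group, which share the fit. The 9 lower at 12 h became 5, 3, 4, 5, 14 and 5 without control replicates 1 and 3, 12 h replicates 2 and 3 and 24 h replicates 2 and 3. Over the fits without 1 library, 26.5% to 30.2% of all rows were higher and 27.6% to 32.4% lower at 12 h. At 24 h 30.2% to 33.6% were higher and 28.7% to 32.2% lower, and 7.27% to 11.1% were lower than at 12 h. RPS26, RPS27L, RPL7L1 and RPL24 kept their calls at both times in every one of these fits, though RPL24 lost both with the length trend removed.

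Members were also counted by the C and T run at their start. Of the 47 tested members with the run, 2 rose and 4 fell at 12 h and 3 rose and 7 fell at 24 h, with medians of 0.0 and 0.024. Of the 18 without it, 1 rose and 3 fell at 12 h and 6 rose and 5 fell at 24 h, with medians of 0.031 and 0.055. All rows had 29.1% higher and 31.0% lower at 12 h and 33.0% and 31.7% at 24 h, so that the 6 and 5 of 18 were near the share over all rows. The difference between these subsets was not tested.

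Ribosomal proteins whose symbols the rule does not take gave 1 rise and 1 fall among 3 at each time. This was near the share over all rows, 29.1% higher and 31.0% lower at 12 h and 33.0% and 31.7% at 24 h. RACK1, a scaffold on the small subunit, rose by 0.21 at 12 h and 0.285 at 24 h (limma adjusted p = 7.95e-05 at 24 h), and RPL36AL, a near-identical copy of RPL36A that may share fragments with it, fell by 0.485 and 0.29 (limma adjusted p = 0.00218 at 24 h), where the 24 h call was lost with the length trend removed (-0.17, limma adjusted p = 0.0685). FAU, which encodes a fusion with a ubiquitin-like protein, did not pass the test at either time, but was called lower under 2 alternatives at each, among them leaving out 24 h replicate 2 (at 12 h) or 24 h replicate 1 (at 24 h).

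Genes that serve the ribosome were read from the same fit, in which 29.1% of all rows were higher and 31.0% lower at 12 h, and 33.0% and 31.7% at 24 h. Of the 21 other TOP mRNAs, 9 rose and 2 fell at 12 h and 10 rose and 4 fell at 24 h, with medians of 0.079 and 0.083. With the length trend removed, 12 rose and 1 fell at 12 h, and 7 rose and 2 fell at 24 h, the 7 being near the 31.5% of all rows. The medians were then 0.104 and 0.062, beside 0.115 and 0.10 for the members in the same fit. EEF2, the translocation factor of elongation, rose from 663 to 875 and 913 FPKM, and PABPC1, the poly(A)-binding protein, from 320.2 to 408 and 406 FPKM. Of the 19 tested genes of ribosomal protein chaperones and subunit assembly, 13 rose and 1 fell at 12 h and 11 rose and 2 fell at 24 h, with medians of 0.28 and 0.21, among them RIOK1 (0.51 at 12 h) and NMD3 (0.56 at 24 h). In ribosome biogenesis and rRNA synthesis, 14 of 26 genes rose and 4 fell at 12 h. At 24 h 12 rose and 8 fell, and 11 were lower than at 12 h, beside 10.5% of all rows. RRP12 had the largest rise of these 26 genes, by 0.58 and 0.56. NHP2, of the small nucleolar RNPs, had the largest fall, by 0.55 and 0.63, and NCL, nucleolin, fell by 0.26 and 0.41. Of the 14 genes of upstream control, 7 rose and 3 fell at 12 h and 5 rose and 3 fell at 24 h, the latter near the share over all rows. EIF4EBP1, a translation repressor that mTORC1 switches off, rose from 60.6 to 136 and 137 FPKM (1.16 and 1.17), and MYC, which drives ribosomal protein transcription, from 30.6 to 64.6 and 54.1 FPKM.

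The proteins of the mitochondrial ribosome, encoded in the nucleus, were measured beside those of the cytosol. Of 77 tested genes, 9 rose and 43 fell at 12 h, beside 29.1% and 31.0% of all rows, with a median of -0.15. At 24 h 8 rose and 45 fell, beside 33.0% and 31.7% of all rows, with a median of -0.22. In the cytosolic set 9 of 81 fell at 12 h and 16 of 81 at 24 h, as given above. With the length trend removed, 32 mitochondrial ribosomal protein genes were lower and 13 higher at 12 h, and 41 lower and 12 higher at 24 h, with medians of -0.049 and -0.15. Of all rows in that fit, 30.1% were lower and 29.7% higher at 12 h, and 33.2% and 31.5% at 24 h. RPSAP58, the 1 ribosomal protein pseudogene of the table, fell at 24 h by 0.30 (limma adjusted p = 0.0033).

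**Figure D5:**
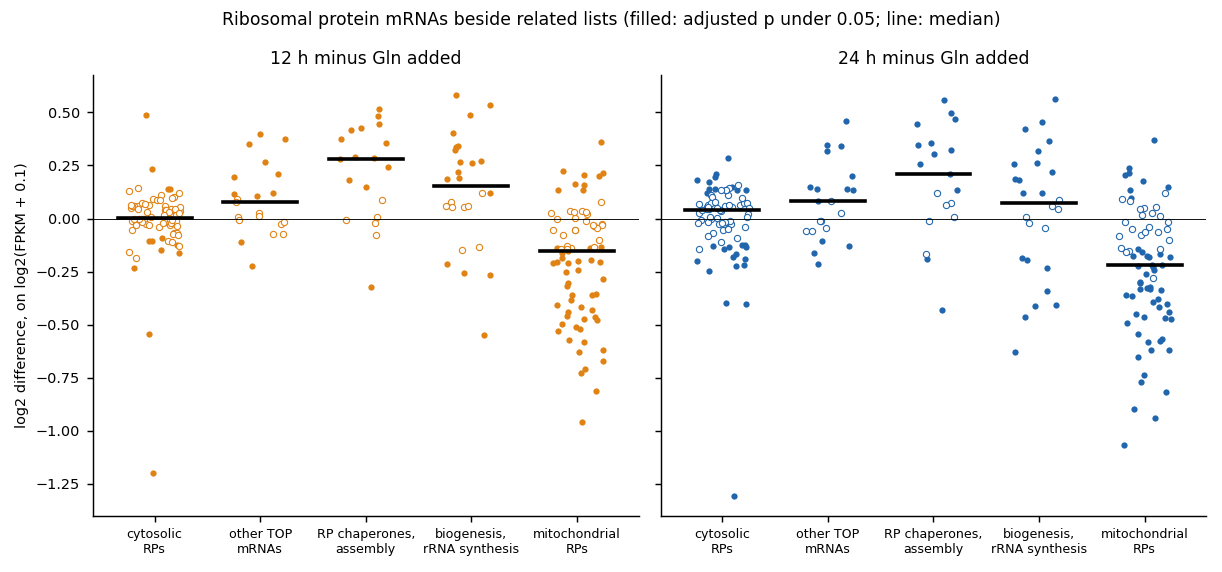
Log2 difference from Gln added, on the log2(FPKM + 0.1) scale, of each gene in 5 lists at 12 h (left) and 24 h (right); filled points have an adjusted p under 0.05 from limma and the line is the median of the list. The cytosolic ribosomal proteins lie close to 0 with RPS26 far below them, the chaperone and assembly genes have a median of 0.28 at 12 h, and the mitochondrial ribosomal proteins have medians of -0.15 and -0.22.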

How the data were processed

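RNA-seq of 9 HepG2 libraries in 3 groups of 3 was used. Per the paper's methods, the authors aligned strand-specific paired reads to GRCh38 with STAR and tested with DESeq2. The labels name another preparation kit and, among the processing tools, HTSeq without a version and R 3.2.0, so whether strand was used in counting is not known. The authors deposited FPKM per gene, with no further scaling stated.

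Values were tested on log2(FPKM + 0.1) with limma 3.58.1 in R 4.3.3 (eBayes with a trend, 3 groups in 1 fit) for the 11880 rows averaging 0.5 FPKM or more over the libraries, with Benjamini-Hochberg adjustment over all of them. On this scale the change of low genes is understated. Whole fragments were solved from the steps of the FPKM values, and summed to 99.991% of the library totals solved in the same way. In simulated data for 12 h against Gln added (11883 genes), limma called 37.9% of genes changed by 0.25, 86.4% of those changed by 0.5 and 100.0% of those changed by 1, and 12 of its 158 calls were false. In the deposited data 60.2% of the tested rows were called in that comparison, and whether these rates hold there was not tested. All replicate pairs of the deposited data differed by more than sampling noise. Single genes were also compared by exact permutation tests (3 against 3, smallest p 0.1).

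The members, and the 7 lists of related genes, were chosen with earlier results of these data known. Named members are the 5 largest called rises and falls of each comparison, the 5 highest and the 5 lowest levels with Gln added, and members chosen for their role or as paralog pairs (31 in all), and 1 member and 2 other genes are not reported here. Others are named where a count is spelled out, after their values were seen. Positions are from GENCODE v44 and start windows from RefSeq; RPL39L and RPL10L had no row, and C and T runs were read on the strand of the gene only. Alternatives were other pseudocounts and filters, other scalings, a length trend removed with splines (4 degrees of freedom), a replicate block, voom on the solved fragments and each library left out. Centring on the members' median was added after seeing the data. Plotting used Python 3.11.15 (matplotlib 3.10.9).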

Additional observations from a re-analysis of the deposited data

Results flagged for a closer look

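RPL22L1 was the 1 member called different between the times of deprivation, by the limma contrast of 24 h against 12 h. It was 0.489 above Gln added at 12 h and 0.134 above it at 24 h, a difference of -0.355 on the log2 scale (SE 0.08, limma adjusted p = 0.0112 over all 11880 rows). All 3 libraries at 24 h were below all 3 at 12 h, and under the 22 alternatives the difference lay between -0.413 and -0.257 with an adjusted p of at most 0.0432. It rests on 621 to 1015 fragments per library.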

How the results depend on the processing

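The direction of the calls over the members depended on the scaling and on single libraries, and the cause was not tested. In the fits of 12 h against Gln added, the members called higher and lower were 2 and 3 with no filter, 15 and 3 after rescaling each library to an equal FPKM total, 39 and 2 with the length trend removed (median 0.115), 11 and 14 with only the 2 groups compared, and 20 and 5 (median 0.047) when centred on the members' median, which was chosen after seeing the data. Among all rows, 15% were higher and 16% lower at 12 h with no filter, and 29.6% and 32.4% with only the 2 groups compared. When centred on the members' median, 29.8% of all rows were higher and 23.8% lower at 12 h. The shares for rescaled totals and for the length trend removed are given above. Median-ratio scaling gave 5 lower, eBayes without a trend 4 lower and voom on the solved fragments 7 higher, beside 30.2%, 30.3% and 29.8% of all rows. At 24 h the members called higher and lower were 7 and 9 with no filter, 23 and 9 with rescaled totals and 30 and 7 with the length trend removed. The shares of all rows were 18.2% and 16.7%, 37.2% and 27.9%, and 31.5% and 33.2%, in that order. Between 24 h and 12 h, 7 were lower with the length trend removed and 7 when centred on the members' median, beside 13.4% and 11.8% of all rows. With the length trend removed, with the replicate block and without it, RPL3 (0.1), RPL8 (0.021), RPLP0 (0.108) and RPS27 (0.203) changed sign at 12 h and were called either there or as reported. Leaving out 1 library gave 2 to 10 higher and 3 to 14 lower at 12 h, 8 to 39 higher and 11 to 20 lower at 24 h, and 0 to 10 higher and 1 to 5 lower between the times, with medians of -0.017 to 0.017, -0.024 to 0.094 and -0.034 to 0.076. Of all rows, 26.5% to 30.2% were then higher and 27.6% to 32.4% lower at 12 h, and 30.2% to 33.6% and 28.7% to 32.2% at 24 h. Between the times 6.63% to 10.1% were higher and 7.27% to 11.1% lower. The counts for other pseudocounts and the filter of 1 FPKM stayed within 1.5 times.

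The replicate numbers were not taken to pair the libraries, since same-numbered libraries correlated between -0.14 and 0.28 and 2 of 9 exceeded 0.1. With the number as a replicate block, 9 members were higher at 12 h, and with the length trend removed too, 42 were higher and 2 lower at 12 h (median 0.115), 34 higher and 7 lower at 24 h, and 7 lower between the times. Of all rows, 29.8% were higher at 12 h with the block. With the length trend removed too, 30.1% were higher and 31.0% lower at 12 h, 31.8% and 33.9% at 24 h, and 14.2% lower between the times.

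Over 2046 recomputed values of single members, 83 lost a call and 125 gained one with the sign kept, and 108 crossed 0, of which the 8 given above had a call on either side. Without the mitochondrially encoded genes in the denominator, the members' share of FPKM was 11.3%, 11.7% and 11.9% in the control, 12 h and 24 h groups, against 9.44%, 9.69% and 9.85% with them. FPKM carry no scale of total RNA, and fragments that fit several genes limit the levels of members with pseudogenes.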
